A study of Mus musculus with 24 samples.

Results

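Integrins and laminins were examined in male and female mouse astrocyte lines carrying p53 KO, p53 R172H, p53 Y202C, or p53 Y217C. A list of 34 integrin and laminin genes was looked up by gene symbol in the count table, and 28 of them, 20 integrins and 8 laminins, were among its 14427 genes. Itgae, Itgal, Itgam, Itgb6, Lama3, and Lamc3 were not analysed here. The list was drawn up by name and not by the values below.

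The 24 libraries were polyA RNA-seq of 8 lines with 3 replicates each. Astrocytes came from the cortex of C57BL/6 pups on postnatal day 1 with 1 floxed and 1 deleted Trp53 allele, pooled into 1 male and 1 female culture. Mutant lines received a Trp53-IRES-eGFP retrovirus and were sorted for eGFP, and afterwards all 8 lines received lentiviral Cre and were selected with puromycin. The KO lines received Cre only, without the retrovirus or the sort. The cells were grown in medium with serum and are labelled as passages 10 to 15. Each line is therefore 1 transduced population, replicates are repeated thaws and platings of it, sex cannot be told apart from culture, and the p-values below measure the spread between platings and not between animals. Because these are bulk samples, fewer cells of a type and less RNA per cell cannot be told apart.

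Integrins are receptors made of 1 α and 1 β chain that span the cell membrane and tie the extracellular matrix to the actin cytoskeleton. The β1 chain pairs with α chains that bind collagen, laminin, or fibronectin, and αV pairs with several β chains to bind fibronectin, vitronectin, and latent TGFβ. Laminins are matrix proteins of the basement membrane built from 1 α, 1 β, and 1 γ chain, and the α chain carries most of the sites that integrins and dystroglycan bind. In the brain, astrocyte end feet and vessel cells both lay down laminins at the vessel wall, and glioma cells use the same matrix as a track for migration.

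Library totals ranged from 52787288 to 136503809 counts, with a median of 80684345. Trp53 set the KO lines apart from the mutant lines. Its mean was 48.9 CPM (counts of a gene scaled to a common library size) in female KO, 50.9 in male KO, and between 593 and 3710 in the mutant lines. This level cannot check which mutation or sex a library carries, and no sex-linked gene was examined here. The astrocyte markers Vim, Sox9, Gja1, and Nes were present in every line. The 11 astrocyte markers summed to between 3790 and 5870 CPM in a library, mostly Vim, whose line means ran from 3330 to 4740 CPM. The mean of Gfap, however, was at most 6.93 CPM and that of S100b at most 1.28 CPM, and Aqp4 was at 0 in female KO and at most 8.06 CPM elsewhere, so these defining markers were low or absent. The lowest line means of Aldh1l1, Slc1a2, and Aldoc were 0.0546, 0.174, and 0.774 CPM, and their highest were 56.6, 7.82, and 5.77 CPM. All 6 fibroblast markers were in the table, with a summed level from 8460 CPM in male p53 Y202C to 48400 CPM in female p53 R172H, mostly collagens. The others were low in some lines, with line means down to 0.0704 CPM for Lum, 0.907 CPM for Dcn, and 2.71 CPM for Pdgfra. Of the microglial markers 3 of 13 were in the table and of the epithelial markers 1 of 6, Cdh1, at 2.55 CPM or less. The part of cell composition in the results below was not tested.

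Integrin and laminin genes changed in every mutant line. A gene was called higher or lower at a Benjamini-Hochberg adjusted p of 0.05 or less in the quasi-likelihood test of edgeR over all genes. In male p53 R172H, 17 of the 28 genes were called, where 40.7% of all genes were. Of these 7 were higher and 10 lower, against 20.2% and 20.5% of all genes. In male p53 Y202C, 22 were called, against 73% of all genes, 7 higher (37.6% of all) and 15 lower (35.4%). In male p53 Y217C, 23 were called, against 70.5%, 10 higher (34.9%) and 13 lower (35.6%). The female lines had 21 called in p53 R172H, against 69.7%, 12 higher (34.4%) and 9 lower (35.3%). Female p53 Y202C had 24 called, against 68.6%, 17 higher and 7 lower, where higher and lower genes each made up 34.3% of all. Female p53 Y217C had 24 called, against 56.7%, 10 higher (28%) and 14 lower (28.7%). Direction was therefore mixed in every line, with most of the calls higher in female p53 Y202C and most lower in male p53 Y202C.

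Because a large share of all genes was called, the size of a change separates the genes further. With an absolute log2 fold change above 0.5 required as well, 9, 15, and 18 genes remained in male p53 R172H, Y202C, and Y217C, where 12.9%, 45.3%, and 40.3% of all genes did. In the female lines 16, 17, and 19 remained, where 38.8%, 37.7%, and 25.3% of all genes did. The median absolute log2 fold change of the 28 genes was 0.32, 0.58, and 0.64 in the male lines and 0.62, 0.70, and 0.63 in the female lines, beside 0.19, 0.46, and 0.40 and 0.39, 0.38, and 0.28 over all genes. The log2 ratio of the highest to the lowest line mean had a median of 1.96 over the 28 genes and 1.02 over all genes. Of the 28 genes, 8 were called in all 6 comparisons, or 28.6% against 13.2% of all genes, and 15 were higher in at least 1 line and lower in at least 1 other, or 53.6% against 48.7%. Comparisons within a culture share their KO libraries.

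**Figure D1:**
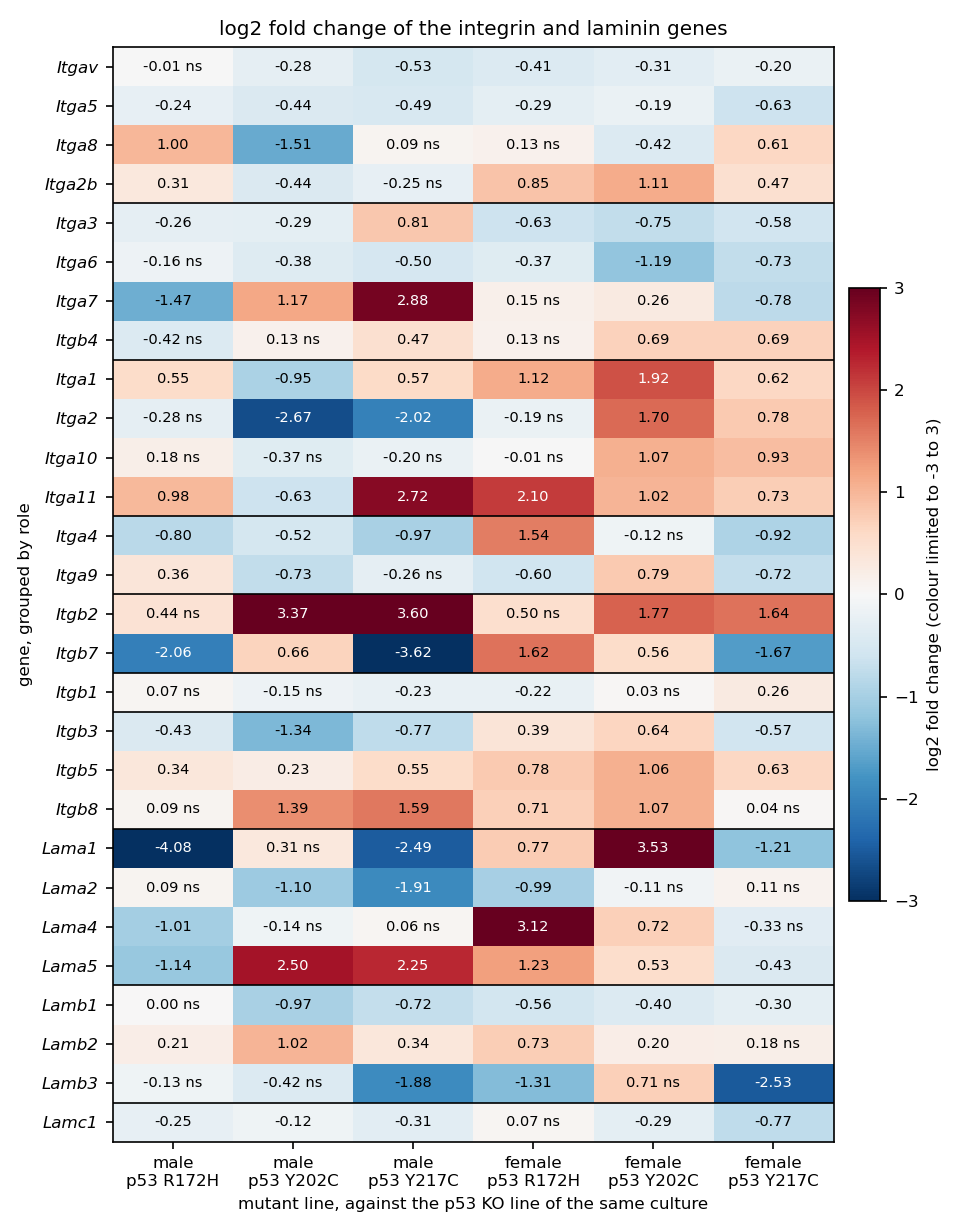
log2 fold change of each integrin and laminin gene (rows, grouped by role, with lines between the groups) in each mutant line against the p53 KO line of the same culture (columns), with the value printed in the cell and ns where the adjusted p was above 0.05. Colours stop at -3 and 3, and the widest row is Lama1, from -4.08 in male p53 R172H to 3.53 in female p53 Y202C.

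Each laminin α chain had its highest level in a different set of lines. Lama5, the α chain of laminin-511 that is found in most mature basement membranes, was high in 2 male lines. It stood at 120, 120, and 139 CPM in the 3 male KO libraries, at 828, 692, and 631 CPM in male p53 Y202C, and at 580, 590, and 637 CPM in male p53 Y217C. The lowest library of either mutant line lay far above the highest KO library. The log2 fold change was 2.5 ± 0.10 (SE) in male p53 Y202C (adjusted p = 2.29e-16), a 5.67-fold rise, and 2.25 ± 0.10 in male p53 Y217C (adjusted p = 1.31e-15). Male p53 R172H went the other way, to a mean of 57.4 CPM, a log2 change of -1.14 ± 0.10. In the female culture every library was below the male KO libraries, with 37.4, 36.7, and 40.7 CPM in KO, 97.8, 78.5, and 92.8 CPM in p53 R172H, and means of 55.3 CPM in p53 Y202C and 28.4 CPM in p53 Y217C. Within that culture p53 R172H and p53 Y202C were called higher (log2 fold changes of 1.23 ± 0.10 and 0.53 ± 0.10) and p53 Y217C lower (-0.43 ± 0.10).

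The promoter of Lama5 is shown because this gene had the largest rise in CPM of any laminin. It is the 250 bases ahead of the RefSeq start of transcription, on the minus strand of GRCm38.p6 at chr2:180225860-180226109. Capitals mark the GC box (GGGCGG or its reverse complement, the core of an Sp1 site), which occurs 4 times. The same letters are found in 32.7% of the 32851 promoter windows of this length in the table.
Lama5: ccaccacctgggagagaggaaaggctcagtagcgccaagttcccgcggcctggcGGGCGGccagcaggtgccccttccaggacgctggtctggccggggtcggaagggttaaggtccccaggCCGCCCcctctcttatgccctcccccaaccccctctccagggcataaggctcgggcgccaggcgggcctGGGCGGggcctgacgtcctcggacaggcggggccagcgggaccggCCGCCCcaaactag

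Lama4, the α chain of vessel and mesenchymal laminins such as laminin-411, was high in female p53 R172H alone. The 3 libraries of that line held 205, 186, and 178 CPM, and female KO held 16.7, 23.5, and 25.3 CPM, a log2 fold change of 3.12 ± 0.15 (adjusted p = 8.65e-15) and 8.68-fold. No library of any other line exceeded 53.1 CPM. In male p53 R172H it was called lower, at 17.4, 29.6, and 23.5 CPM against 41.2, 47.0, and 53.1 CPM in male KO (log2 fold change -1.01 ± 0.15, adjusted p = 6.49e-06). Female p53 R172H was also the line with the highest fibroblast markers, including Pdgfra at 165 CPM and Dcn at 105 CPM, while the endothelial markers present, 3 of 7, summed to between 17.2 and 17.8 CPM there and to between 17.7 and 19.1 CPM in female KO. The mural markers present, 4 of 6, summed to between 3350 and 3890 CPM there and to between 2510 and 2640 CPM in female KO, with Pdgfrb (log2 fold change 1.19), Myh11 (0.96), and Acta2 (0.41) called higher and Rgs5 (-1) lower. Pdgfra is also on the list of oligodendrocyte lineage markers. Its log2 fold changes in the female culture were 5.74 with R172H and 5.54 with Y202C. In the Y202C line of that culture Dcn (2.82), Lum (2.26), and Col3a1 (1.27) were also called higher. Lama4 had a mean of 36 CPM there (log2 fold change 0.72). The part of the fibroblast and mural markers in the Lama4 result was not tested.

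Lama1, the α chain of the laminin-111 of embryonic and pial basement membranes, was a low gene with the widest range of all, 82-fold between line means. Female p53 Y202C held 23.5, 25.7, and 21.6 CPM against 2.07, 1.93, and 2.11 CPM in female KO, a log2 fold change of 3.53 ± 0.16 (adjusted p = 3.07e-15). Male p53 R172H held 0.300, 0.307, and 0.255 CPM against 3.89, 4.87, and 5.90 CPM in male KO, a log2 fold change of -4.08 ± 0.20 (adjusted p = 7.57e-14). Both p53 Y217C lines were low. The male line had 0.736, 0.711, and 1.18 CPM (log2 fold change -2.49 ± 0.17, adjusted p = 4.68e-12) and the female line 0.728, 1.04, and 0.886 CPM (log2 fold change -1.21 ± 0.18, adjusted p = 4.12e-06). Female p53 R172H, at 3.29, 3.40, and 3.76 CPM, was modestly higher than its KO, and male p53 Y202C, at 6.24, 6.55, and 5.40 CPM, overlapped its KO and missed the threshold (adjusted p = 0.0622).

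Lama2, the α chain of laminin-211 that is made by muscle and by astrocytes at vessels, fell in 3 mutant lines and rose in none. In the female culture it was 237, 233, and 227 CPM in KO and 118, 115, and 119 CPM in p53 R172H, a log2 fold change of -0.99 ± 0.06 (adjusted p = 1.57e-12). In the male culture KO held 267, 270, and 286 CPM, p53 Y202C 142, 113, and 129 CPM, and p53 Y217C 68.7, 73.0, and 77.9 CPM, with log2 fold changes of -1.10 ± 0.06 and -1.91 ± 0.07. The groups did not overlap in any of these 3 comparisons. In the other 3 mutant lines the line mean lay between 215 and 293 CPM, and Lama2 was not called. An antisense transcript shares 631 bases of exon with Lama2, and whether counting used strand is not stated.

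**Figure D2:**
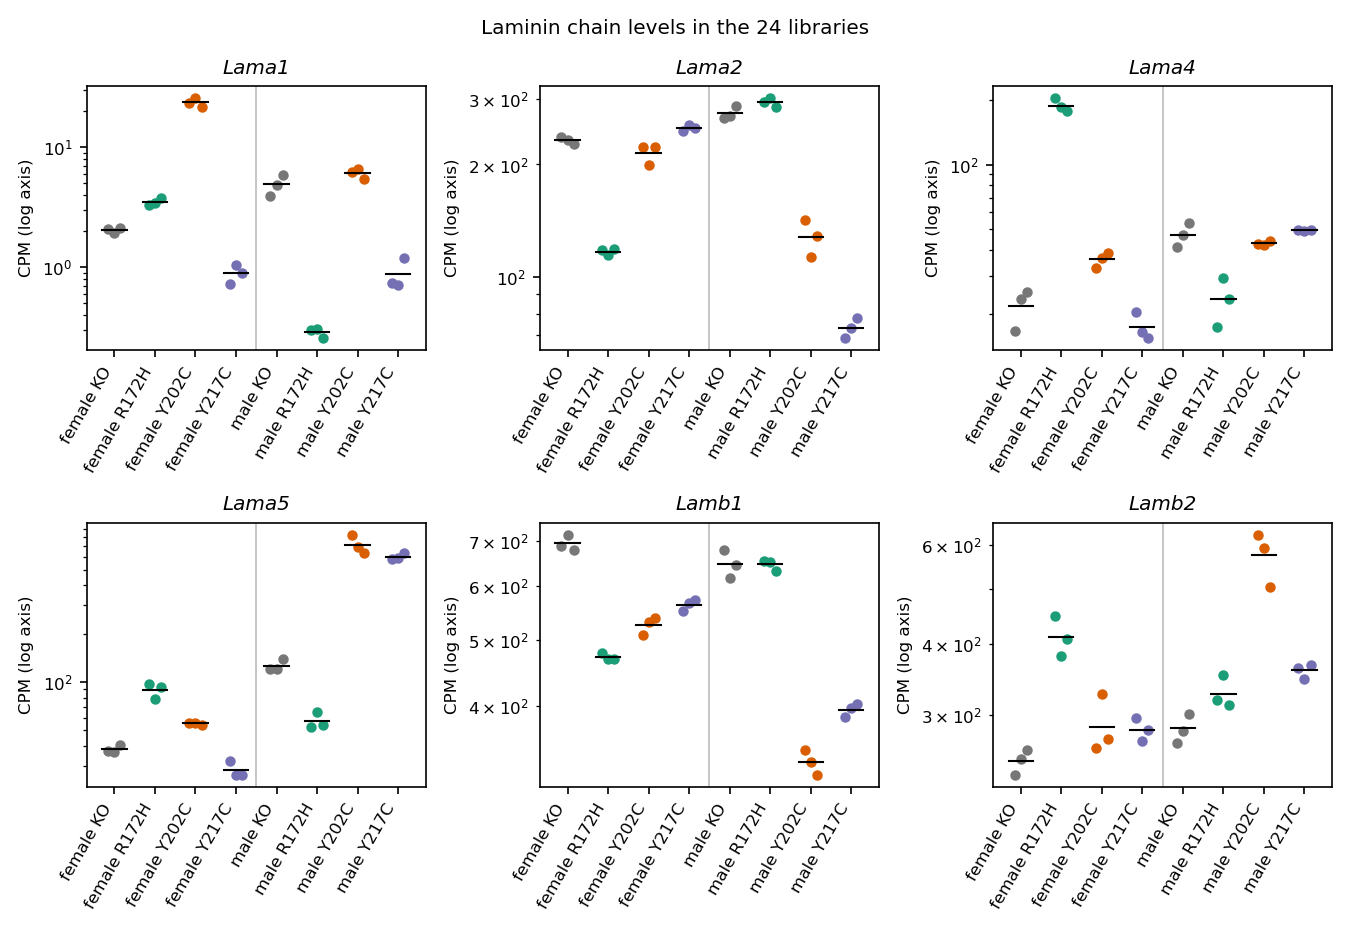
Levels of 4 laminin α chains and 2 laminin β chains in CPM on a log axis, 1 point per library, with a bar at the mean of the 3 replicates and a grey line between the female and male cultures. Lama5 is highest in male p53 Y202C and male p53 Y217C, Lama4 in female p53 R172H, and Lama1 in female p53 Y202C.

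To set the α chains against each other, levels were divided by exon length and each chain was given as a share of the summed α chain signal per kilobase. Lama2 held 72.6% ± 2.29 (SD, n = 3) in female KO and 52.1% ± 1.4 in male KO, and it remained the leading chain in male p53 R172H, female p53 Y202C, and female p53 Y217C, at 72.0%, 56.1%, and 79.2%. Lama5 held 34.3% ± 0.790 in male KO but 83.9% ± 1.58 in male p53 Y202C and 85.9% ± 0.212 in male p53 Y217C. In female p53 R172H, Lama4 held 50.4% ± 1.93 against 9.22% ± 1.82 in female KO. In these 3 lines the leading α chain was therefore another than in their KO. With the length of the longest coding transcript in place of all exons, the same chain led in each of the 8 lines (Lama5 at 74.8% and 76.9% and Lama4 at 60.5% in those lines). These shares are of RNA, and the summed α chain signal also moved, from 32.3 RPKM (CPM per kilobase) in male KO to 75.0 in male p53 Y202C and 61.5 in male p53 Y217C.

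The β chains moved in opposite directions. Lamb1, the β chain of most embryonic laminins, was lower in 5 of the 6 mutant lines, and Lamb2, the β chain of vessel and synaptic laminins, was higher in 5. Lamb1 fell furthest in male p53 Y202C, to 344, 330, and 316 CPM from 679, 618, and 645 CPM in male KO (log2 fold change -0.97 ± 0.04, adjusted p = 2.07e-15). In the same line Lamb2 rose to 625, 592, and 504 CPM from 268, 281, and 301 CPM (log2 fold change 1.02 ± 0.08, adjusted p = 7.58e-11). Neither pair of groups overlapped. Lamb2 also rose by 0.73 ± 0.08 on the log2 scale in female p53 R172H, where Lamb1 fell by 0.56 ± 0.04. The smaller Lamb2 changes were less secure. Its calls in male p53 R172H (0.21 on the log2 scale) and female p53 Y202C (0.20) were each lost when single libraries were left out.

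Per kilobase, Lamb2 made up 41.6% ± 2.15 of the β chain signal in male KO and 73.8% ± 1.42 in male p53 Y202C. Lamb2 was also above Lamb1 in female p53 R172H, at 58.6% ± 1.69, and in male p53 Y217C, at 59.8% ± 0.889. With the coding transcript length these were 64.0%, 47.2%, and 48.4%, so that Lamb2 led Lamb1 by both lengths only in male p53 Y202C. Lamb3, a chain of the epithelial laminin-332, was at 2.33 CPM or less in every line mean. It fell in female p53 Y217C, to 0.352, 0.330, and 0.0296 CPM from 1.34, 1.67, and 1.29 CPM in female KO (log2 fold change -2.53 ± 0.39, adjusted p = 6.99e-06; -2.06 without female p53 Y217C replicate 3). In female p53 R172H it was 0.721, 0.512, and 0.503 CPM (log2 fold change -1.31 ± 0.34, adjusted p = 0.0016) and in male p53 Y217C 0.175, 0.414, and 0.214 CPM against 0.737, 1.10, and 1.11 CPM in male KO. These lines also lay below every library of their KO. In female p53 Y202C it was 2.15, 2.53, and 2.30 CPM and missed the threshold, in male p53 R172H it was 0.978, 1.01, and 0.713 CPM, and in male p53 Y202C 0.520, 0.948, and 0.778 CPM. Lamc1, the γ chain shared by most laminins, was lower in 5 mutant lines, most in female p53 Y217C at 273, 280, and 282 CPM against 468, 487, and 471 CPM (log2 fold change -0.77 ± 0.05, adjusted p = 1.46e-12). Its call in male p53 Y202C (-0.12) was lost without male KO replicate 3 and without either of male p53 Y202C replicates 2 and 3. The γ chain moved little beside the α chains, by 1.88-fold between the highest and the lowest line mean.

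**Figure D3:**
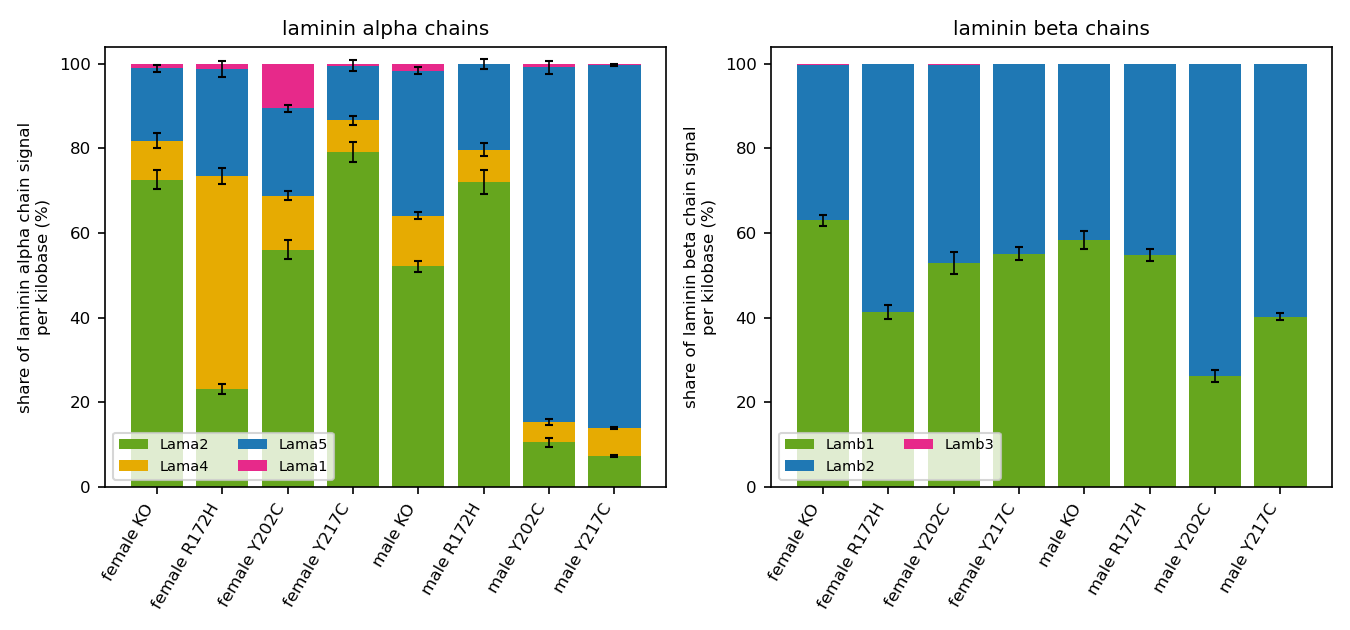
Share of each chain in the summed laminin α (left) and laminin β (right) signal per kilobase of exon, as the mean of the 3 replicates of a line in stacked bars, with error bars of 1 SD at the upper edge of Lama2, Lama4, Lama5, and Lamb1. Lama5 holds 83.9% and 85.9% in male p53 Y202C and male p53 Y217C, and Lama4 50.4% in female p53 R172H. The Lamb2 shares depend on the gene length used.

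Laminin-binding integrins did not move as a block. Itga7, the α chain of the laminin receptor of muscle and glia, varied 27.8-fold between line means. It was 20.8, 22.4, and 24.6 CPM in male KO, 165, 163, and 171 CPM in male p53 Y217C (log2 fold change 2.88 ± 0.11, adjusted p = 2.92e-17), and 55.7, 50.3, and 46.4 CPM in male p53 Y202C (log2 fold change 1.17). Both are the lines with high Lama5. Astrocyte markers also moved in both lines, and the mural sum rose in male p53 Y217C. In male p53 Y217C, 8 of the 11 astrocyte markers were called higher and none lower, among them Aldh1l1 (log2 fold change 6.46), Aqp4 (6.18), Gfap (4.76), Slc1a2 (3.76), and Slc1a3 (3.11). In male p53 Y202C, 4 of the 11 were higher, led by Aldh1l1 (5.47), and 7 were lower. The mural markers summed to between 4210 and 4410 CPM in male p53 Y217C against 2470 to 2530 CPM in male KO. Pdgfrb (log2 fold change 1.56) and Acta2 (0.66) were called higher there, Rgs5 (-2.15) lower, and Myh11 was not called. In male p53 Y202C the mural sum was between 2410 and 2780 CPM, and only Rgs5 was called (-6.24). The part of the astrocyte and mural markers in the Itga7 result was not tested. Male p53 R172H fell to 7.01, 9.26, and 8.36 CPM (log2 fold change -1.47 ± 0.11, adjusted p = 1.59e-10), and the 12 female libraries ran from 4.87 CPM in p53 Y217C to 13.8 CPM in p53 Y202C, with KO at 10.5, 10.1, and 10.2 CPM and p53 R172H at 11.8, 11, and 11.4 CPM. The female p53 Y217C libraries, at 7.04, 4.87, and 6.06 CPM, lay below all 3 female KO libraries (log2 fold change -0.78 ± 0.11), and the small rise in female p53 Y202C (0.26 ± 0.11) was lost when a single library was left out.

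Itga3, the α chain of the main receptor for laminin-511 and laminin-332, was lower in 5 mutant lines and higher in male p53 Y217C. That line held 409, 475, and 433 CPM against 264, 239, and 247 CPM in male KO, a log2 fold change of 0.81 ± 0.08. In the female culture KO held 210, 200, and 198 CPM, p53 R172H 129, 128, and 135 CPM (log2 fold change -0.63 ± 0.08, adjusted p = 1.71e-07), p53 Y202C 120, 131, and 110 CPM (-0.75 ± 0.08, adjusted p = 1.32e-08), and p53 Y217C 131, 137, and 138 CPM (-0.58 ± 0.08). All female mutant libraries were below all female KO libraries. Male p53 R172H (238, 192, and 195 CPM) and male p53 Y202C (a mean of 204 CPM, with 185 CPM the lowest and 225 CPM the highest library) were slightly lower than their KO. The first of these calls was lost without male KO replicate 1 and without either of male p53 R172H replicates 2 and 3. Itga6, the α chain of the laminin receptor of stem cells and of hemidesmosomes, was lower in 5 lines and not called in male p53 R172H. It fell most in female p53 Y202C, to 36.8, 34.8, and 37.9 CPM from 84.9, 87.7, and 77.1 CPM (log2 fold change -1.19 ± 0.08, adjusted p = 3.34e-12). Its hemidesmosome partner Itgb4 was low, at 3.84 CPM or less in every line mean, and its 3 calls, all higher, were each lost when a single KO library was left out.

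The collagen-binding integrins differed between lines of the same mutation. Itga11, the α chain of the receptor for fibrillar collagen in fibroblasts, led this group in every line, with 73.9% to 96.7% of its signal per kilobase. Male KO held 51.3, 67.7, and 75.0 CPM and male p53 Y217C 421, 414, and 444 CPM, a log2 fold change of 2.72 ± 0.15 (adjusted p = 9.14e-14) and 6.58-fold. Female KO held 41.5, 52.1, and 55.0 CPM and female p53 R172H 240, 209, and 187 CPM, a log2 fold change of 2.10 ± 0.15 (adjusted p = 1.17e-11). Smaller rises were seen in male p53 R172H, at 96.7, 155, and 131 CPM (log2 fold change 0.98 ± 0.15, adjusted p = 1.02e-05), in female p53 Y202C, at 94.5, 98.5, and 108 CPM, and in female p53 Y217C, at 98.6, 75.3, and 72.9 CPM. Male p53 Y202C alone was lower than its KO, at 42.7, 40.3, and 42.3 CPM (log2 fold change -0.63 ± 0.15). The 2 male lines that shared the Lama5 rise therefore stood apart in Itga11. The fibroblast markers summed to between 16700 and 17300 CPM in male p53 Y217C, with the highest Itga11, and to between 8460 and 10300 CPM in male p53 Y202C, with the lowest, against 27200 to 32600 CPM in male KO. Among female libraries they summed to between 41400 and 48400 CPM in p53 R172H, with the second highest Itga11, and between 34000 and 40200 CPM in p53 Y202C, against 23500 to 25400 CPM in KO. Their part in the Itga11 result was not tested.

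The Itga11 promoter is shown because this α chain led the group and had 1 match to the AP-2 sequence GCCNNNGGC, set in capitals, which starts 131 bases ahead of the start of transcription. It lies on the plus strand of GRCm38.p6 at chr9:62677605-62677854 and holds the 250 bases ahead of the RefSeq start. The AP-2 letters occurred in 13.7% of all windows and in those of Itga11, Itga2, Itga4, and Itga8 among the 20 integrin and laminin genes that have a window. The AP-1 sequence TGANTCA, in 6.75% of all windows, was in none of the 20.
Itga11: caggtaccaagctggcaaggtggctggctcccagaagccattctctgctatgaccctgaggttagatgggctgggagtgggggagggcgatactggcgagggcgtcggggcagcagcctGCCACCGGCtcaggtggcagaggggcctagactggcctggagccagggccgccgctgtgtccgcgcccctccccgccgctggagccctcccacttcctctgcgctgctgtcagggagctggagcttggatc

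Itga1, the α chain of the receptor that prefers basement membrane collagen, had its highest level in female p53 Y202C and its lowest in male p53 Y202C. The female line held 105, 89.9, and 113 CPM against 23.1, 29.3, and 28.6 CPM in female KO (log2 fold change 1.92 ± 0.11, adjusted p = 3.24e-13), and the male line 16.0, 14.3, and 16.2 CPM against 25.3, 30.7, and 34.0 CPM in male KO (log2 fold change -0.95 ± 0.11). The same mutation thus lay on opposite sides of the KO in the 2 cultures. The remaining 4 mutant lines were higher than their KO, with female p53 R172H at 64.1, 56.2, and 56.2 CPM (1.12 ± 0.11), female p53 Y217C at 45.0, 39.6, and 40.0 CPM, male p53 Y217C at 44.4, 41.8, and 47.4 CPM, and male p53 R172H at 38.9, 50.2, and 42.8 CPM (0.55 ± 0.11, adjusted p = 0.000293).

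Itga2, the α chain of the collagen receptor of epithelium and platelets, was low in all lines and was likewise split between the p53 Y202C lines. Male KO held 1.97, 2.37, and 1.91 CPM, male p53 Y202C 0.310, 0.298, and 0.381 CPM (log2 fold change -2.67 ± 0.22, adjusted p = 1.30e-10), and male p53 Y217C 0.312, 0.634, and 0.603 CPM (-2.02 ± 0.21, adjusted p = 7.57e-09). Female KO held 1.48, 1.5, and 1.43 CPM, female p53 Y202C 4.55, 4.39, and 5.41 CPM (1.70 ± 0.19, adjusted p = 2.51e-08), and female p53 Y217C 2.13, 2.41, and 3.03 CPM (0.78 ± 0.19, adjusted p = 0.00119). In neither culture did these groups overlap. Both p53 R172H lines were near their KO and not called, at 1.71, 1.78, and 1.64 CPM in the male line and 1.39, 1.41, and 1.07 CPM in the female line. Itga10, a cartilage collagen receptor chain, was called in 2 lines, higher in female p53 Y202C (1.07 ± 0.20) and female p53 Y217C (0.93 ± 0.20, adjusted p = 0.000304), at means of 3.74 and 3.39 CPM against 1.78 CPM. Its exons share 1739 bases on the same strand with another gene annotated in GENCODE M21. Whether reads that fit both were left out depends on the annotation used for counting, which was not checked.

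**Figure D4:**
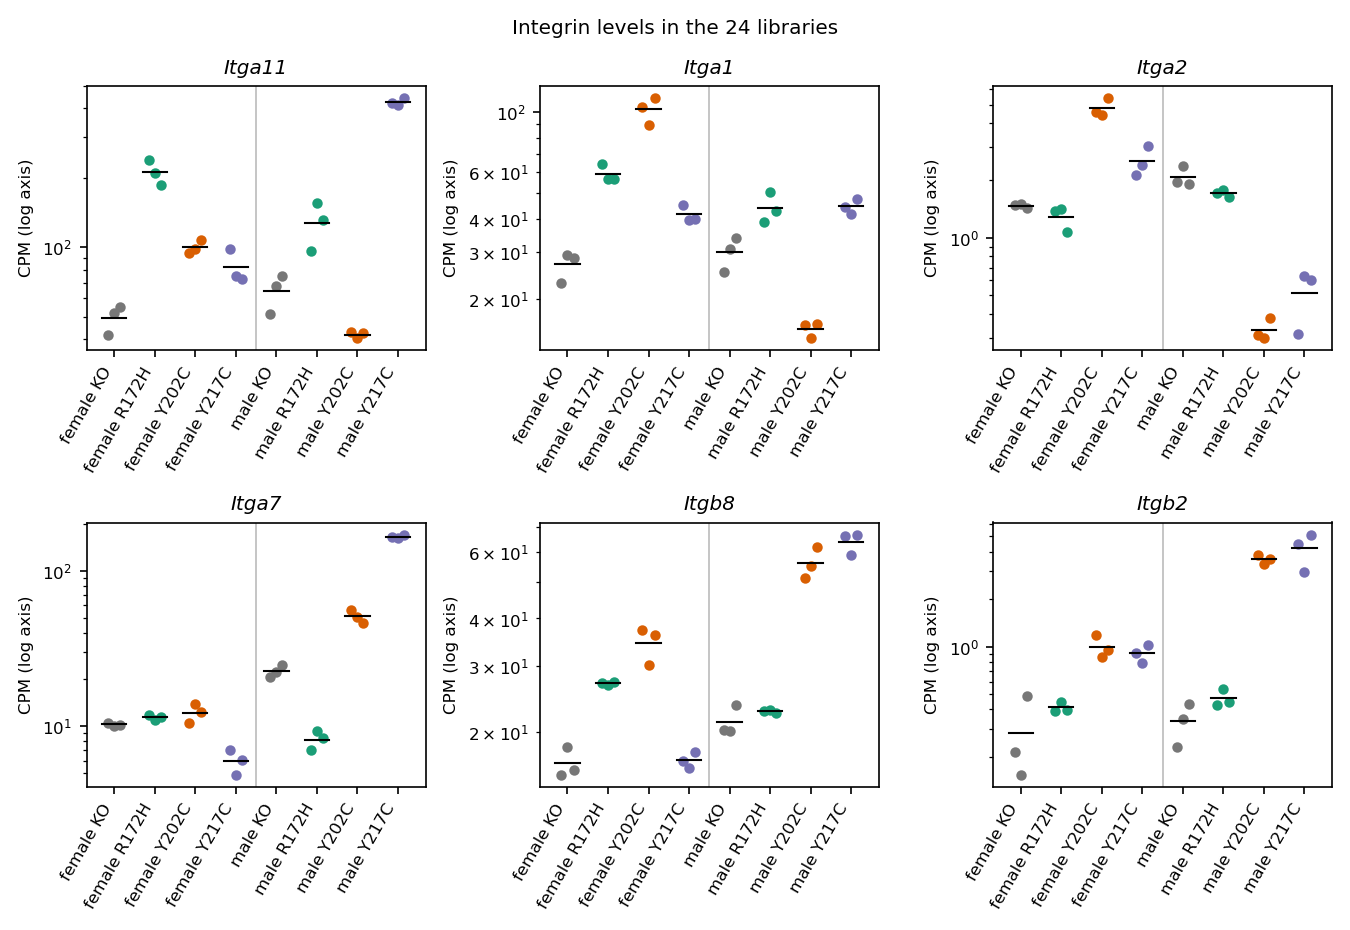
Levels of 6 integrin genes in CPM on a log axis, 1 point per library, with a bar at the mean of the 3 replicates and a grey line between the female and male cultures. Itga11 and Itga7 are highest in male p53 Y217C, Itga1 and Itga2 are highest in female p53 Y202C and lowest in male p53 Y202C, and Itgb8 and Itgb2 are highest in male p53 Y202C and male p53 Y217C.

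Among receptors for fibronectin and other RGD ligands, 1 gene moved the same way everywhere in each direction. Itga5, the α chain of the main fibronectin receptor, was lower in all 6 mutant lines, a pattern shared by 2.56% of all genes, and it was the only one of the 28 to do so. Its level was 429, 430, and 417 CPM in female KO and 440, 416, and 447 CPM in male KO, and the 18 mutant libraries ran from 263 CPM in female p53 Y217C to 390 CPM in female p53 Y202C. The libraries of each mutant line therefore lay below those of both KO lines. The log2 fold change was between -0.63 and -0.19. Itgb5, which pairs with αV to bind vitronectin, was the only 1 of the 28 higher in all 6, as were 2.54% of all genes. It went from 187, 191, and 191 CPM in female KO to 363, 449, and 378 CPM in female p53 Y202C (log2 fold change 1.06 ± 0.08, adjusted p = 2.55e-11) and from 270, 305, and 322 CPM in male KO to 439, 431, and 446 CPM in male p53 Y217C (0.55 ± 0.08). The weakest rise was in male p53 Y202C, where 369, 361, and 320 CPM overlapped KO (0.23 ± 0.08, adjusted p = 0.0118). That call was lost without male KO replicate 1 (0.16, adjusted p = 0.0917) and without male p53 Y202C replicate 1 (0.19, adjusted p = 0.0587), so the call in all 6 lines depends on both libraries.

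The Itgb5 promoter is printed as that of the gene higher in every mutant line. It lies on the plus strand of GRCm38.p6 at chr16:33829415-33829664, and capitals mark 3 GC boxes (GGGCGG on either strand), with no AP-1 or AP-2 match. GC boxes were present in the windows of 7 of the 20 genes, Itga3, Itga4, Itga5, Itgb1, Itgb5, Lama5, and Lamb1.
Itgb5: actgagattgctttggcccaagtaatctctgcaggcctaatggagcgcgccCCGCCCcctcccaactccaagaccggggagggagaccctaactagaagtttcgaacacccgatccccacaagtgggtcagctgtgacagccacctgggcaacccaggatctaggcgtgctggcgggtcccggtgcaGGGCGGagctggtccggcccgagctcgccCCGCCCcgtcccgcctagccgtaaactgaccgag

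Itgb8, which pairs with αV to bind latent TGFβ and is a known product of astrocytes, was higher in 4 lines. It rose to 51.1, 55.2, and 61.8 CPM in male p53 Y202C and 66.3, 58.9, and 66.8 CPM in male p53 Y217C from 20.2, 20.1, and 23.6 CPM in male KO, with log2 fold changes of 1.39 ± 0.08 (adjusted p = 3.05e-13) and 1.59 ± 0.08. It also rose in female p53 Y202C, to 37.3, 30.2, and 36.1 CPM, and female p53 R172H, to 27.0, 26.7, and 27.2 CPM, from 15.4, 18.2, and 15.9 CPM. Male p53 R172H (0.09 ± 0.08) and female p53 Y217C (0.04 ± 0.09) were not called. Of the astrocyte markers, Aldh1l1, Aqp4, and Slc1a2 were called higher in both male lines where Itgb8 rose. Their log2 fold changes were 5.47, 3.99, and 1.64 with Y202C, and 6.46, 6.18, and 3.76 with Y217C. Vim was slightly higher in both (0.15 and 0.14). The other astrocyte markers were lower with Y202C and higher or not called with Y217C. Both female lines where Itgb8 rose had higher Slc1a3 (3.91 with R172H, 1.19 with Y202C) and lower Nes (-2.03 and -1.70). Aldh1l1 was called higher in only the first of them (6.15). The part of these markers in the Itgb8 result was not tested. Itgb3, which pairs with αV and with αIIb, was lower in all 3 male mutant lines, most in p53 Y202C at 10.4, 10.2, and 9.61 CPM against 24, 25.7, and 27.1 CPM in male KO (log2 fold change -1.34 ± 0.10, adjusted p = 7.37e-12). In the female culture it was higher in p53 R172H (0.39 ± 0.09) and p53 Y202C (0.64 ± 0.09) and lower in p53 Y217C (-0.57 ± 0.10).

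Itgav itself, the αV chain that these β chains share, was lower in 5 lines by small amounts, at most -0.53 ± 0.08 on the log2 scale in male p53 Y217C, and was not called in male p53 R172H. Its call in female p53 Y217C (-0.20) was lost without female KO replicate 1 (-0.19) or 2 (-0.16) and without female p53 Y217C replicate 1 (-0.12). Itga8, the nephronectin receptor chain of mesenchyme, rose in male p53 R172H and fell in male p53 Y202C. These lines held 17.5, 21.9, and 20.2 CPM (log2 fold change 1.00 ± 0.14, adjusted p = 3.13e-06) and 3.53, 3.36, and 3.55 CPM (-1.51 ± 0.15, adjusted p = 2.59e-09) against 10.1, 9.22, and 10.4 CPM in male KO, and male p53 Y217C, at 11.7, 9.56, and 10.3 CPM, was not called. Female KO held 9.30, 8.95, and 8.88 CPM and female p53 Y217C 16.1, 11.8, and 13.5 CPM (0.61 ± 0.14). Female p53 R172H, at 12.1, 10.2, and 7.48 CPM, was not called, and the fall in female p53 Y202C, to 6.96, 5.56, and 7.67 CPM (-0.42 ± 0.14, adjusted p = 0.0117), was lost without its replicate 2 (-0.30, adjusted p = 0.0829). Itga2b, the αIIb chain best known from platelets, was between 7.47 and 17.3 CPM in all line means, and higher in 4 lines, most in female p53 Y202C (1.11 ± 0.12). Its call in male p53 R172H (0.31) was lost without male KO replicate 1 (0.18) and without either of male p53 R172H replicates 2 and 3. Of the 4 other megakaryocyte markers on the list, Ppbp and Gp1ba were in the table, at line means of 8.84 CPM or less. Ppbp was called higher in the 3 female mutant lines, in each of which Itga2b was higher, with log2 fold changes of 2.04 (p53 R172H), 2.34 (p53 Y202C), and 3.46 (p53 Y217C). It was lower by 4.01 in male p53 Y202C, where Itga2b was lower (-0.44). In male p53 R172H, where Itga2b was called higher, Ppbp was not called (0.07). Gp1ba was called in none of the 6 comparisons. The part of these markers in the Itga2b result was not tested.

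Itgb1, the β chain shared by most of these receptors, had the highest mean level per kilobase of the 28 genes, 379 RPKM, and the smallest range, 1.4-fold between line means. It ran from 1250 CPM in female p53 R172H to 1920 CPM in female p53 Y217C. Of the α chains it pairs with, Itgav and Itga5 varied as little, by 1.44-fold and 1.58-fold, and Itga7 varied by 27.8-fold. It was called lower in male p53 Y217C (-0.23 ± 0.07) and female p53 R172H (-0.22 ± 0.07) and higher in female p53 Y217C (0.26 ± 0.07).

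The remaining integrins include the chains best known from leukocytes, which were low in these lines. Itgb2, the β2 chain of leukocyte integrins, was 0.230, 0.350, and 0.434 CPM in male KO, 3.80, 3.36, and 3.58 CPM in male p53 Y202C (log2 fold change 3.37 ± 0.28, adjusted p = 1.41e-10), and 4.49, 2.99, and 5.13 CPM in male p53 Y217C (3.60 ± 0.28, adjusted p = 5.26e-11). These were 10.3-fold and 12.1-fold rises at a low level. In the female culture KO held 0.216, 0.154, and 0.483 CPM, p53 Y202C 1.19, 0.865, and 0.946 CPM (1.77 ± 0.31, adjusted p = 1.93e-05), and p53 Y217C 0.916, 0.788, and 1.03 CPM (1.64 ± 0.30, adjusted p = 7.32e-05). Without female KO replicate 3 these were 2.40 and 2.27. Male p53 R172H, at 0.426, 0.538, and 0.446 CPM, was not called, and female p53 R172H, at 0.392, 0.448, and 0.396 CPM, was called only without that same KO library (1.13, adjusted p = 0.00396). Of 13 microglial markers, Csf1r, Cd68, and Tmem119 were present. Their sum, mostly Tmem119, was between 41.8 and 45.6 CPM in male p53 Y202C and between 26.5 and 28.6 CPM in male p53 Y217C, against 68.0 to 84.5 CPM in male KO. Female libraries summed to between 75.0 and 90.3 CPM in p53 Y202C and between 97.0 and 105 CPM in p53 Y217C, against 45.8 to 49.6 CPM in KO. The markers did not move together. Cd68 was called higher in male p53 Y202C (log2 fold change 2.70) and male p53 Y217C (1.52), and in neither of these female lines. Csf1r was higher in male p53 Y217C (0.77) and female p53 Y202C (2.29) and lower in male p53 Y202C (-1.15). Tmem119 was lower in these male lines and higher in these female lines. The part of such cells in the Itgb2 result was not tested.

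Itgb7, the β chain that pairs with α4 and αE, differed in all 6 comparisons. It fell from 3.77, 3.04, and 3.38 CPM in male KO to 0.920, 0.769, and 0.739 CPM in male p53 R172H (log2 fold change -2.06 ± 0.21, adjusted p = 5.04e-08) and 0.424, 0.181, and 0.214 CPM in male p53 Y217C (-3.62 ± 0.25, adjusted p = 4.65e-12), and rose to 5.78, 5.27, and 4.97 CPM in male p53 Y202C (0.66 ± 0.19). From 1.74, 1.79, and 2.30 CPM in female KO it rose to 5.61, 5.66, and 6.63 CPM in female p53 R172H (1.62 ± 0.20, adjusted p = 1.05e-07) and fell to 0.529, 0.750, and 0.547 CPM in female p53 Y217C (-1.67 ± 0.23, adjusted p = 1.23e-06). Both p53 Y217C lines were therefore the lowest of their cultures. The rise in female p53 Y202C, to 3.21, 3.45, and 2.02 CPM (0.56 ± 0.20), was lost when single libraries were left out. Itga4, an α chain for VCAM-1 and fibronectin that pairs with β1 or β7, was at 3.12 CPM or less in line means. It was higher in female p53 R172H, at 3.06, 3.20, and 3.09 CPM against 0.972, 1.41, and 0.850 CPM (1.54 ± 0.18), and lower in 4 lines, of which the call in male p53 Y202C (-0.52 ± 0.19) was lost when single libraries were left out. Its exons share 1124 bases with Cerkl on the opposite strand. Itga9, the related receptor chain for tenascin-C and VCAM-1, was higher in female p53 Y202C (0.79 ± 0.13) and male p53 R172H (0.36 ± 0.13), and lower in male p53 Y202C (-0.73 ± 0.14), female p53 R172H (-0.60 ± 0.13), and female p53 Y217C (-0.72 ± 0.13). The call in male p53 R172H was lost when single libraries were left out. Antisense or overlapping genes also share exon bases with Itga1 (685, same strand), Itgav (634, opposite strand), Itgb4 (537, opposite strand), and Itga8 (372, opposite strand), and the part of their reads in these values was not tested.

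The KO lines of the 2 cultures already differed. Between male and female p53 KO, 18 of the 28 genes were called, 16 higher and 2 lower in the male line, where 31.1% of all genes were called, 17.2% higher and 13.8% lower. With an absolute log2 fold change above 0.5 required as well 11 remained, where 12% of all genes did. The differences were led by laminin α chains, with Lama5 higher by 1.72 ± 0.10 on the log2 scale (126 against 38.3 CPM, adjusted p = 2.24e-12), Lama1 by 1.27 ± 0.15, and Lama4 by 1.11 ± 0.15. Among integrins, Itga7 was higher by 1.14 ± 0.11 (22.6 against 10.3 CPM) and Itgb5 by 0.66 ± 0.08 (299 against 190 CPM), and Itga6 was lower by 0.65 ± 0.08 (53 against 83.2 CPM). Itga5, Itgav, and Itgb1, the most even of the abundant chains, were not called. Whether the difference belongs to sex or to the 2 cultures cannot be told apart.

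The question of the study was whether p53 mutations act differently in male and female cells. Trp53 was not matched between the male and the female line of a mutation. Its mean was 2320 CPM in male and 593 CPM in female p53 Y202C, and 1220 and 3710 CPM in p53 Y217C. In p53 R172H it was 2290 CPM in the male and 1960 CPM in the female line. The effect of this level cannot be told apart from that of sex, culture, or line. The difference between the male and the female effect of a mutation was tested as an interaction, with a positive value where the male effect was the higher. In p53 R172H it passed for 22 of the 28 genes, where 58% of all genes passed, 8 positive (29.7% of all) and 14 negative (28.3%). In p53 Y202C it passed for 23, against 68%, 8 positive (34.5%) and 15 negative (33.5%). In p53 Y217C it passed for 18, against 54.8%, 8 positive (27.5%) and 10 negative (27.4%). With an absolute difference above 0.5 required as well, 17, 19, and 13 remained, where 36.2%, 50%, and 35% of all genes did. Called in opposite directions in the 2 cultures were 7 genes with p53 R172H, 6 with p53 Y202C, and 5 with p53 Y217C. Each of these passed the interaction, which adds little, since calls of opposite sign make a passing difference likely. The share of all genes called in opposite directions was not counted, so these numbers do not set the 28 genes apart. For p53 R172H 3 of the 7 were laminin α chains, with Lama1, Lama4, and Lama5 each higher in the female and lower in the male line. For p53 Y202C, 3 of the 4 collagen-binding α chains were among the 6, Itga1, Itga2, and Itga11, each higher in the female and lower in the male line, and the fourth, Itga10, was higher in the female line and not called in the male line (interaction -1.44 ± 0.28, adjusted p = 7.22e-05). For p53 Y217C, the laminin receptor chains Itga3 and Itga7 and the ligand chain Lama5 were higher in the male and lower in the female line, and Itga2 and Itgb1 the reverse.

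**Figure D5:**
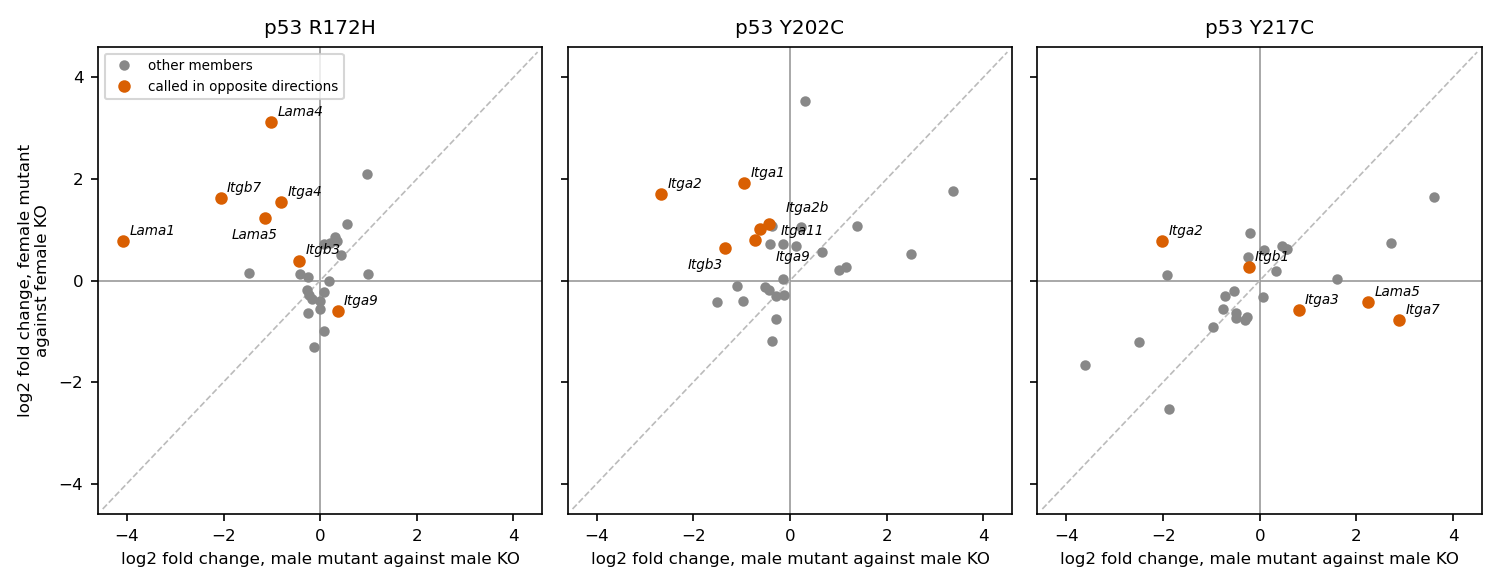
log2 fold change in the male mutant line against male KO (horizontal axis) and in the female mutant line against female KO (vertical axis) for the 28 genes, 1 panel per mutation, with the dashed line where both are equal. Orange points are the 7, 6, and 5 genes called in opposite directions in the 2 cultures, and grey points are the other genes.

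Some changes were shared by both cultures. In p53 Y202C, 7 genes were higher in both cultures, among them Itgb2, Itgb8, and Lama5, and 7 were lower in both, among them Itga3, Itga6, and Lamb1. In p53 Y217C, Itgb2, Itga1, Itga11, Itgb4, and Itgb5 were higher in both, and 10 genes were lower in both, among them Lama1, Lamb3, Itgb7, Lamb1, and Lamc1. In p53 R172H, 5 genes were higher in both cultures and 2 were lower in both. Some of these shared calls were lost when a single library was left out. For p53 Y202C these were Itga7, Itgb7, Lamb2, and Itga8 in the female line and Itgb5 and Lamc1 in the male line. For p53 Y217C they were Itgb4 in both lines and Itgav in the female line. For p53 R172H they were Itga2b, Lamb2, and Itga3 in the male line. How often all genes were called the same way in both cultures was not counted. These numbers therefore do not set the integrin and laminin genes apart. Sizes also differed between the cultures for genes called the same way in both. The rise of Itga11 in p53 Y217C was larger in the male than the female line by 1.99 ± 0.21 on the log2 scale (adjusted p = 1.50e-08), and that of Itgb2 by 1.96 ± 0.42 (adjusted p = 0.000311).

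Genes that work with integrins and laminins were also counted, from a list of 81 in the table that holds 36 adaptors of the adhesion site, 29 ligands, and 16 membrane partners. In the male lines 44 were called in p53 R172H (27 higher, 17 lower), 66 in p53 Y202C (37 higher, 29 lower), and 65 in p53 Y217C (28 higher, 37 lower). In the female lines 68 were called in p53 R172H (34 each way), 67 in p53 Y202C (28 higher, 39 lower), and 58 in p53 Y217C (23 higher, 35 lower). As shares these were 54.3%, 81.5%, and 80.2% in the male and 84%, 82.7%, and 71.6% in the female lines, each above the share of all genes given above. With an absolute log2 fold change above 0.5 required as well, the partner shares were 12.3%, 48.1%, and 45.7% in the male lines, where 12.9%, 45.3%, and 40.3% of all genes passed, and 55.6%, 53.1%, and 40.7% in the female lines, where 38.8%, 37.7%, and 25.3% did. Male p53 R172H was then no longer above the share of all genes. The median absolute log2 fold change of the list ran from 0.18 to 0.55, beside 0.19 to 0.46 over all genes. The largest rise and the largest fall of each line make 12 extremes, of which 10 were in ligands. Thbs2, the matricellular thrombospondin-2, fell most in all 3 male lines, from 622 CPM in KO to 283 CPM in p53 R172H, 48.4 CPM in p53 Y202C, and 34.8 CPM in p53 Y217C (log2 fold change -4.16 ± 0.09, adjusted p = 2.81e-21). Nid2, nidogen-2, which links laminin to collagen IV, rose most in both p53 Y217C lines, to 1020 CPM from 193 CPM in the male line (2.40 ± 0.06) and to 309 CPM from 117 CPM in the female line (1.4 ± 0.06).

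In the female culture the ligand with the largest fall differed by mutation. Thbs1, thrombospondin-1, fell from 10200 to 1930 CPM in p53 R172H (-2.40 ± 0.08), Tnc, tenascin-C and a ligand of α9, from 1530 to 316 CPM in p53 Y202C (-2.27 ± 0.07), and Fbn1, fibrillin-1, from 1420 to 427 CPM in p53 Y217C (-1.73 ± 0.06). The largest rises were Egfl6, an α8 ligand, in p53 R172H at 5.78 against 0.0848 CPM, and Ccn3, a matricellular CCN protein, in p53 Y202C at 111 against 5.54 CPM. In the male lines they were Bcam, the membrane receptor of the laminin α5 chain, in p53 R172H at 2.71 against 1.17 CPM, and the adaptor Parvg in p53 Y202C at 1.37 against 0.164 CPM.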

How the data were processed

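Raw read counts for 14427 genes in 24 libraries were analyzed. The authors aligned reads with STAR 2.5.1a to the Ensembl release 76 mouse assembly, counted unique unambiguous reads per gene with featureCounts, removed ribosomal and low genes, and deposited the counts without normalization. The strand of counting is not given in the sources used here. Identifiers were paired with symbols of GENCODE M21 on GRCm38 (14350 matched), and promoters came from RefSeq on GRCm38.p6 (20 of the 28 genes had one). Counts were fitted in R 4.3.3 with edgeR 4.0.16, with TMM scaling, a filter of more than 1 CPM in at least 2 libraries, which removed no gene, 1 mean per line, and Benjamini-Hochberg adjusted p-values over all genes. The depth of 52787288 counts or more per library makes counting error small beside the spread between platings for well-counted genes. It is not small for low ones, such as Lamb3 with 2 to 30 counts in female p53 Y217C or Itgb2 with 12 to 50 in female KO. On simulated data, 196 of 200 changed genes were recovered for male p53 Y202C against male p53 KO, with 15 false calls among 13702 genes tested. The simulation used a fixed spread and changed only those 200 genes, all above a count minimum and by the same factor up or down. In the real comparison 73% of all genes were called, so the simulation checks the code and not the error rate of the calls above.

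The genes and lists were chosen with earlier results of these data known. In each mutant against KO comparison, the 3 largest rises and 3 largest falls for which each library of the higher line reached 10 counts are given with their error, and genes named so in at least 2 comparisons are shown in every library. The printed promoters were chosen after values were seen. Motifs were searched on both strands. Alternatives were limma 3.58.1 with voomWithQualityWeights, DESeq2 1.42.0, its size factors in edgeR, other filters and thresholds, a fit of the compared lines alone, a block for the replicate number, each library left out in turn, and, added after seeing the data, another gene length for shares and the direction of calls under other scalings.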

Additional observations from a re-analysis of the deposited data

Results flagged for a closer look

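The genes below were picked out because a mutation moved them in opposite directions in the male and the female culture, each past the threshold, and the edgeR interaction passed as well. The share of all genes that meets this rule was not counted. Values are the male minus the female log2 effect. For p53 R172H they were -4.85 for Lama1, -4.13 for Lama4, -3.68 for Itgb7, -2.37 for Lama5, -2.34 for Itga4, -0.82 for Itgb3, and 0.96 for Itga9, of which only Itga9 was higher in the male line, and its male call depended on single libraries. For p53 Y202C all 6 were higher in the female line, with -4.37 for Itga2, -2.88 for Itga1, -1.98 for Itgb3, -1.65 for Itga11, -1.55 for Itga2b, and -1.52 for Itga9. For p53 Y217C they were 3.65 for Itga7, 2.68 for Lama5, 1.4 for Itga3, -2.79 for Itga2, and -0.49 for Itgb1. Each culture is 1 pool of cells per sex and each line 1 transduction with its own level of Trp53. Sex, culture, line, and Trp53 level therefore cannot be told apart in these differences.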

How the results depend on the processing

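Of the 131 calls over the 6 mutant against KO comparisons, 15 were lost when 1 library of the lines compared was left out, all at an absolute log2 fold change of 0.69 or less, and 5 of these also under another test, scaling, filter, or sample choice. No call reversed under any alternative run, and the median of all genes moved by at most 0.03 under other scalings.

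With an absolute log2 fold change above 0.5 required as well, the integrin and laminin genes called fell to 9 in male p53 R172H and 11 between the KO lines, and the partner genes to 10, 39, and 37 in male p53 R172H, Y202C, and Y217C, and 45, 43, and 33 in the female lines. When each library was left out in turn, the integrin and laminin counts ranged from 13 to 17, 20 to 23, and 22 to 23 in the male lines, 21 to 22, 20 to 23, and 23 to 24 in the female lines, 21 to 23, 20 to 23, and 16 to 18 for the 3 interactions, and 14 to 18 between the KO lines. Without male KO replicate 1 or without male p53 R172H replicate 2, the male p53 R172H count was 13, 4 higher and 9 lower. With voom the p53 Y217C interaction was 12 higher and 10 lower, where edgeR gave 8 and 10.

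The correlation of same-numbered deviations ran from -0.172 to 0.245. It was highest for male p53 R172H against male KO, at 0.066 to 0.245, with 2 of the 3 pairs above 0.1. Libraries of different numbers were not correlated, so whether replicate numbers pair the libraries was not settled. A replicate block gave counts of 16, 22, and 22 in the male and 21, 23, and 24 in the female lines, and 17 between the KO lines. Of the 48 shares of Lama1, Lama2, Lama4, Lama5, Lamb1, and Lamb2, 45 moved by more than 1 SD with the other gene length. Those of Lamb3, at most 0.350%, are not among the 48.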
